A study of Homo sapiens with 4 samples.

Results

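The genes described here encode the core of cellular iron handling, that is its uptake (TFRC, SLC11A2, STEAP3), its storage and release from storage (FTH1, FTL, NCOA4), its export (SLC40A1) and its sensing (ACO1, IREB2, FBXL5). They were chosen by name, with earlier results of these data known. All 10 were found among the 63677 genes of the count files, each as 1 row on a primary chromosome. Their mRNAs were measured by RNA-seq in IMR90, primary human lung fibroblasts that were kept as separate isolates from passage 5 on. Control cells received a non-targeting control siRNA (NTC), and knockdown cells received siRNA against HMGB1, a chromatin and RNA-binding protein, both with RNAiMAX for 72 h. Each group comprised 2 libraries, with isolate I90-10 as replicate 1 and isolate I90-79 as replicate 2. The study's methods mention 2 different siRNAs for IMR90 but do not say which library received which, so effects of HMGB1 loss and of the siRNAs themselves cannot be told apart. The question asked here is whether the iron genes differed between control and HMGB1 knockdown cells.

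Cells take up iron mainly as transferrin-bound iron through transferrin receptor 1, reduce it in endosomes and pass it to the cytosol, where the surplus is stored in ferritin. In iron-poor cells the iron regulatory proteins IRP1 and IRP2 bind hairpins called iron responsive elements (IREs). Binding in the 3′ UTR protects the TFRC mRNA from decay, whereas binding in the 5′ UTR blocks translation of ferritin and ferroportin mRNAs without removing them. Changes in mRNA level therefore read the system only in part, and no protein or iron level was measured here.

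The IRE hairpins are shown because the IRPs act on these mRNAs through them. For each of 19869 coding genes, only the transcript marked as canonical (GENCODE, lifted to hg19) was taken. It was skipped where its lifted exons did not add up to its length, and the genes skipped were not counted. The shares below are of all 19869. The search looked on the mRNA strand for C, then NNNNN, then CAGTGN, then 5 bases able to pair with the NNNNN (G:T pairs allowed). Of the 10 iron genes, 4 held this word in a UTR, against 0.71% of all coding genes. The word follows the known form of IREs, and these 4 mRNAs are known carriers. Their matches could therefore be foreseen, and the shares are a description of how rare the word is. It was found in the 5′ UTR of FTH1, FTL and SLC40A1, where 0.0906% of coding genes have it, and in the 3′ UTR of TFRC, where 0.619% have it. Each sequence is written 5′ to 3′ as DNA letters of the mRNA strand, with the loop CAGTGN in capitals.
FTH1, 5′ UTR, chr11:61735047-61735073, minus strand: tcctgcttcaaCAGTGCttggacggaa
FTL, 5′ UTR, chr19:49468593-49468619, plus strand: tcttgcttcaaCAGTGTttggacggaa
SLC40A1, 5′ UTR, chr2:190445388-190445414, minus strand: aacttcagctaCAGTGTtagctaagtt
TFRC, 3′ UTR, chr3:195777851-195777877, minus strand: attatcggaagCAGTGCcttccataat
TFRC, 3′ UTR, chr3:195777447-195777473, minus strand: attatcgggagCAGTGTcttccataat
TFRC, 3′ UTR, chr3:195777382-195777408, minus strand: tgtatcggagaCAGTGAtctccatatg
TFRC, 3′ UTR, chr3:195777335-195777361, minus strand: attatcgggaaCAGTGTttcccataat
TFRC held 4 such words in 1 transcript, and the other matching iron genes held 1 each. No match to these letters was found in the searched transcripts of SLC11A2, NCOA4, STEAP3, ACO1, IREB2 or FBXL5. This says nothing of hairpins with another layout or in other transcripts of these genes.

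The authors deposited raw counts of uniquely mapped reads per gene, with totals from 29861687 to 35317010 per library. Expression is given as CPM, reads scaled to a common library size with TMM factors. Differences were tested with edgeR's quasi-likelihood test on the 15398 genes with enough reads, and a gene was called at a Benjamini-Hochberg adjusted p below 0.01 with a log2-fold change beyond 0.6 in either direction. HMGB1 itself had 181 and 237 CPM in control libraries and 16.0 and 18.9 CPM in knockdown libraries, a log2-fold change of −3.59 (SE, standard error, 0.19; edgeR adjusted p = 0.0075). All 10 fibroblast markers were expressed in every library, from 64.9 CPM (PDGFRB) to 12559 CPM (COL1A1). None was called in this test, but 4 of the 10 (40.0%) were called once the isolate was a term of the fit, a replicate block, against 14.5% of all genes tested. There THY1 (log2-fold change −0.99), FN1 (−0.74) and PDGFRB (−0.68) were called as down- and LUM (0.83) as upregulated, and their part in the results was not tested. The leukocyte markers LYZ and AIF1 and the erythroid markers HBA1 and ALAS2 had 0 reads in all libraries, and PTPRC, CD163 and HBB did not exceed 0.0693 CPM. Of 3 endothelial markers with a row on a primary chromosome, CDH5 was at 0 and TEK had 149 and 148 CPM in control and 131 and 132 CPM in knockdown libraries. VWF had the opposite sign, with 1.36 and 0.923 CPM in control and 4.16 and 2.59 CPM in knockdown libraries (log2-fold change 1.57, edgeR adjusted p = 0.0681, and 0.0036 with the block). The summed level, mostly TEK, lay between 149 and 150 CPM in control and between 134 and 135 CPM in knockdown libraries, and the part of these markers in the results was not tested. The 4 epithelial markers summed to between 0.516 and 0.715 CPM. These are bulk samples, so a lower share of some cells and less RNA per cell cannot be told apart.

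TFRC showed the largest difference of the 10 iron genes, a 3.60-fold higher level upon HMGB1 knockdown, and FTH1 followed with 1.71-fold. The other iron genes differed by less than 1.5-fold in either direction. None of them was called in the test without a term for the isolate, in which 0.0649% of all genes tested were called as higher and 0.136% as lower in the knockdown. At an unadjusted p below 0.05 there were 3 iron genes with a higher level (TFRC, FTH1, SLC11A2) and 1 with a lower level (STEAP3), or 40.0% of the 10, against 28.3% of all genes tested. At an adjusted p below 0.05 with any fold change only TFRC passed, 1 of 10, against 8.44% of all genes tested. With the isolate as a replicate block, TFRC and FTH1 were called as upregulated and no iron gene as downregulated, against 6.68% of all genes tested called as up- and 7.84% as downregulated in that fit. DESeq2, with or without a RUVs factor, also called these 2 genes and no other iron gene, where 5.72% (with the factor) and 4.71% (without) of all genes tested were called as upregulated. In all 10 genes the knockdown libraries did not overlap the control libraries (7 higher, 3 lower), which also held for 59.9% of all genes tested (29.8% higher, 30.2% lower). The isolates shared the direction of all 10, as they must for any gene without overlap between the groups. The median log2-fold change was 0.22 for the iron genes and −0.0054 for all genes tested, and the median size regardless of direction was 0.32 and 0.33. Because the genes were chosen with earlier results of these data known, these shares are a description.

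**Figure D1:**
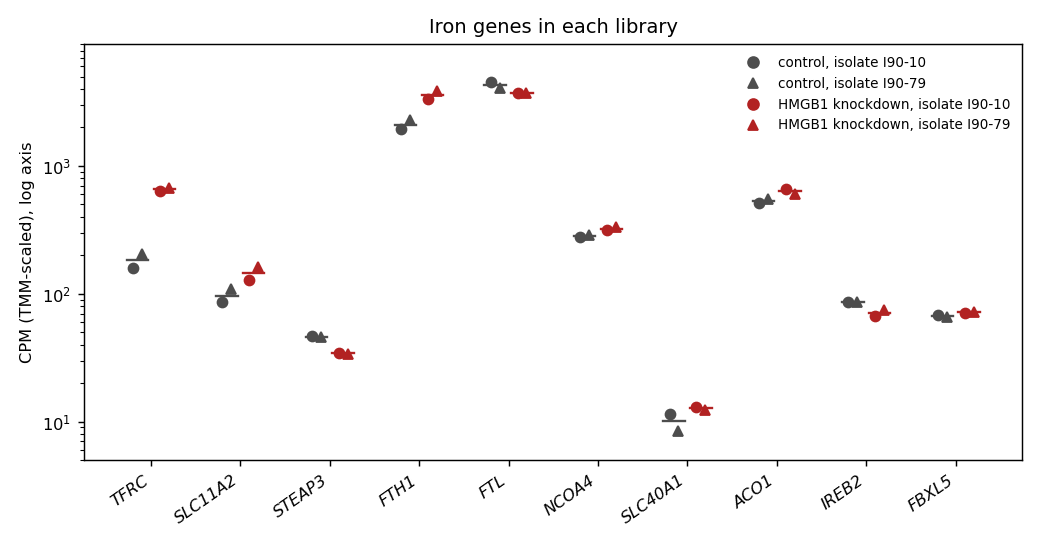
Expression of the 10 iron genes in each library as TMM-scaled CPM on a log axis (dark, control; red, HMGB1 knockdown; circles, isolate I90-10; triangles, isolate I90-79; bars, group means, n = 2). TFRC stands out, with 159 and 206 CPM in control and 641 and 672 CPM in knockdown libraries, while NCOA4 and FBXL5 barely shift.

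TFRC (ENSG00000072274) encodes transferrin receptor 1, which carries transferrin-bound iron into the cell, and lies on the minus strand of hg19 chromosome 3, positions 195754054 to 195809060. It had 159 CPM in control I90-10, 206 CPM in control I90-79, 641 CPM in knockdown I90-10 and 672 CPM in knockdown I90-79. Both knockdown libraries were thus at more than 3 times the level of either control library. The control mean was 182 ± 32.6 CPM (SD, n = 2) and the knockdown mean 657 ± 22.1 CPM (SD, n = 2). The log2-fold change was 1.85 (SE 0.17, 95% interval 1.42 to 2.28), at or above that of 98.7% of all genes tested. Its adjusted p of 0.0114 from edgeR's quasi-likelihood test narrowly missed the threshold of 0.01, although TFRC ranked 109 among the genes tested by p. With the replicate block the log2-fold change was 1.86 (SE 0.11, adjusted p = 4.5e-05), and TFRC was called. With 1 library left out at a time, TFRC was called without control replicate 1 (log2-fold change 1.67, edgeR adjusted p = 0.0042) and without control replicate 2 (2.04, adjusted p = 0.0022), where 0.73% and 1.9% of all genes tested were called as higher. It was not called without knockdown replicate 1 (1.88, edgeR adjusted p = 0.0621) or 2 (1.82, adjusted p = 0.0507), where no gene was called. In each of these fits the lone library of a group is assumed to vary like the 2 of the other group. None of the exonic bases of TFRC overlap another gene, and 1.27% of the 50-base stretches of its transcripts are shared with other genes. The 4 hairpin words shown above all lie in its 3′ UTR.

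SLC11A2 (ENSG00000110911), on chromosome 12 from 51373184 to 51422349, encodes the transporter DMT1, which moves ferrous iron out of the endosome. Its level was 85.5 CPM in control I90-10 and 108 CPM in control I90-79, against 127 and 163 CPM in the knockdown libraries of the same isolates. The isolate I90-79 was higher in each group, and the knockdown exceeded the control by nearly the same step in both isolates, with log2-fold changes of 0.58 and 0.59. Over all 4 libraries the log2-fold change was 0.58 (SE 0.18, 95% interval 0.12 to 1.04, edgeR adjusted p = 0.113). With the replicate block it had an adjusted p of 0.0023, but at a log2-fold change of 0.58 it stayed just under the fold threshold.

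STEAP3 (ENSG00000115107), on chromosome 2 from 119981384 to 120023228, encodes the endosomal ferrireductase that supplies DMT1 with ferrous iron. It went the other way from TFRC and SLC11A2, with 46.7 and 45.6 CPM in control and 34.6 and 33.8 CPM in knockdown libraries (I90-10 first). The replicates were close together in each group. The log2-fold change was −0.43 (SE 0.11, 95% interval −0.71 to −0.16, edgeR adjusted p = 0.0740), and −0.43 in each of the isolates. The replicate block gave an adjusted p of 0.0128, so STEAP3 was not called in that fit either. On its opposite strand, 12.0% of its exonic bases overlap STEAP3-AS1, which had 4 to 9 reads per library.

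**Figure D2:**
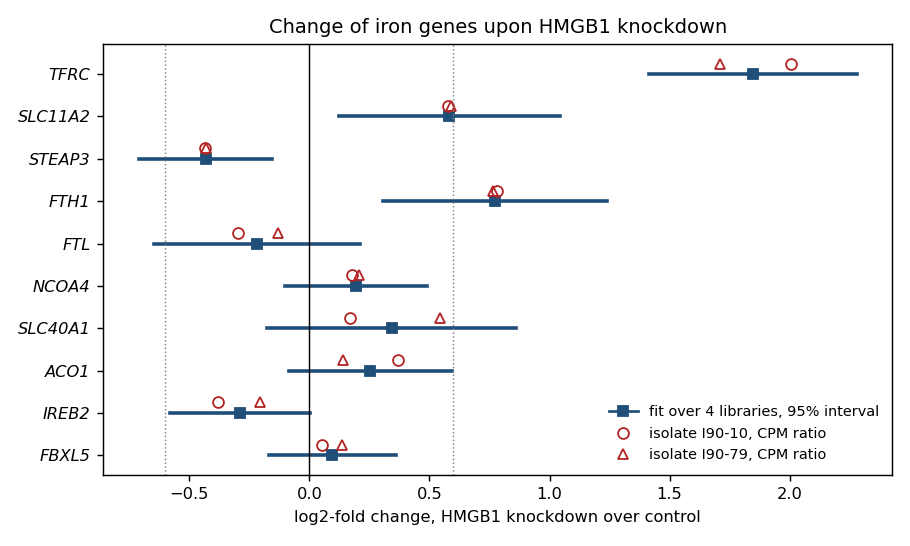
Log2-fold changes of the 10 iron genes, HMGB1 knockdown over control (squares and lines, edgeR fit over 4 libraries with its 95% interval; open circles and triangles, ratio of CPM within isolates I90-10 and I90-79; dotted lines, −0.6 and 0.6). The fit shown has no term for the isolate. In it the intervals of TFRC, FTH1, SLC11A2 and STEAP3 leave out 0, and only that of TFRC lies wholly beyond 0.6.

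Ferritin is a shell of heavy and light chains. FTH1 (ENSG00000167996), on chromosome 11 from 61727190 to 61735132 on the minus strand, encodes the heavy chain, which oxidises iron for storage. It had 1931 CPM in control I90-10, 2274 CPM in control I90-79, 3318 CPM in knockdown I90-10 and 3860 CPM in knockdown I90-79. The lowest knockdown library thus lay above the highest control library. The control mean was 2103 ± 243 CPM (SD, n = 2) and the knockdown mean 3589 ± 383 CPM (SD, n = 2). The log2-fold change was 0.77 (SE 0.18, 95% interval 0.30 to 1.24, edgeR adjusted p = 0.0665), 0.78 in isolate I90-10 and 0.76 in isolate I90-79. With the replicate block it was 0.77 (SE 0.096, adjusted p = 7.5e-04), past both thresholds.

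FTL (ENSG00000087086), on chromosome 19 from 49468558 to 49470135, encodes the light chain, which helps iron to form its mineral core. Its level was 4547 and 4088 CPM in control and 3697 and 3729 CPM in knockdown libraries (I90-10 first). The knockdown libraries were the lower ones, in contrast to FTH1. The log2-fold change was −0.22 (SE 0.17, 95% interval −0.65 to 0.21, edgeR adjusted p = 0.449). A change as large as the rise of FTH1 with the replicate block lies outside this interval.

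Because the chains were counted in the same libraries, their ratio does not depend on the scaling. This ratio was looked at after the values of both genes had been seen and was not tested. There were 0.425 reads of FTH1 for each read of FTL in control I90-10 and 0.556 in control I90-79, against 0.897 and 1.04 in the knockdown libraries. Both isolates thus moved towards the heavy chain. FTH1 and FTL together took 0.637% and 0.664% of all counted reads in control and 0.678% and 0.762% in knockdown libraries.

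**Figure D3:**
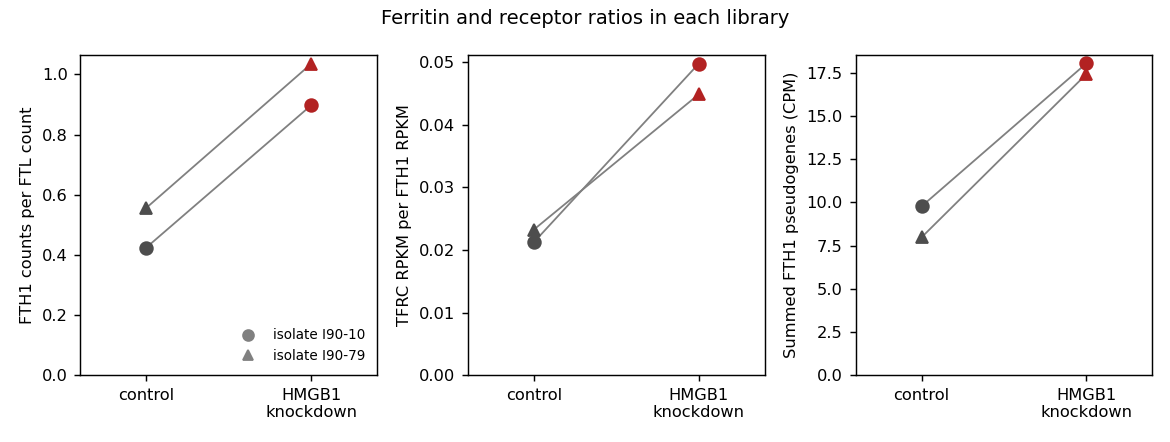
Ratios in each library, with lines joining the libraries of an isolate: reads of FTH1 per read of FTL (left), RPKM of TFRC per RPKM of FTH1 (middle) and the summed CPM of the FTH1 pseudogenes (right). All 3 quantities were higher in the knockdown library of both isolates, for example 0.425 to 0.897 and 0.556 to 1.04 for FTH1 per FTL.

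The counts of FTH1 may hold only part of its reads. In the annotation of the files, 62.4% of its exonic bases overlap BEST1 on the opposite strand, and the strand setting of the counting is not given in the sources used here. BEST1 had 127 and 298 reads in control and 60 and 118 in knockdown libraries, a log2-fold change of −1.08 (SE 0.43, edgeR adjusted p = 0.180), the opposite sign to FTH1. In addition, 20.1% of the 50-base stretches of FTH1 transcripts and 18.5% of those of FTL are shared with other genes. Of 25 FTH1 pseudogenes with a row on a primary chromosome, 18 had reads. Summed, they held 9.77 and 7.98 CPM in control and 18.0 and 17.4 CPM in knockdown libraries, between 0.351% and 0.544% of the reads of the FTH1 row. Adding so few reads to FTH1 left its log2-fold change at 0.77 (edgeR adjusted p = 0.0658). Only uniquely mapped reads were counted, so this sum cannot show how many FTH1 reads were lost. The pseudogene rows alone had a log2-fold change of 1.0 (edgeR adjusted p = 0.0350). Among the pseudogenes, FTH1P20 had 1.97 and 1.47 CPM in control and 5.89 and 4.71 CPM in knockdown libraries, and was called with the replicate block (edgeR adjusted p = 0.0013). FTH1P8, FTH1P7 and FTH1P11 had log2-fold changes of 0.81, 0.92 and 0.93, with adjusted p from 0.114 to 0.126. The FTL pseudogene FTLP3 had a log2-fold change of 0.052 (adjusted p = 0.925). Reads may be placed wrongly among such near-identical copies, so these values do not show transcription of the pseudogenes.

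NCOA4 encodes the receptor that delivers ferritin to autophagy and so frees its iron. Its current identifier sits on a patch sequence in the files, and it was matched by its exons to ENSG00000138293, on chromosome 10 from 51565108 to 51590734. It had 280.2 and 287 CPM in control and 316 and 331 CPM in knockdown libraries (I90-10 first). These small steps gave a log2-fold change of 0.19 (SE 0.12, 95% interval −0.10 to 0.49, edgeR adjusted p = 0.337).

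SLC40A1 (ENSG00000138449), on chromosome 2 from 190425305 to 190448484, encodes ferroportin, which exports iron across the cell membrane. It was the least abundant of the 10 genes per length, with 340 and 314 reads in control and 376 and 388 in knockdown libraries. As CPM this was 11.6 and 8.52 in control and 13.0 and 12.4 in knockdown libraries, so the groups were closer to each other in isolate I90-10 than in I90-79. The log2-fold change was 0.17 in I90-10 and 0.54 in I90-79. Over all libraries it was 0.34 (SE 0.21, 95% interval −0.18 to 0.86, edgeR adjusted p = 0.331), a range that holds both no change and a 1.82-fold higher level.

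ACO1 and IREB2 encode the iron regulatory proteins. ACO1 (ENSG00000122729, chromosome 9, 32384618 to 32454767) makes IRP1, which serves as a cytosolic aconitase when it carries an iron-sulfur cluster, and IREB2 (ENSG00000136381, chromosome 15, 78729773 to 78793798) makes IRP2, which is degraded when iron is plentiful. ACO1 had 514 and 549.6 CPM in control and 663 and 605 CPM in knockdown libraries (I90-10 first), a log2-fold change of 0.25 (SE 0.13, 95% interval −0.087 to 0.59, edgeR adjusted p = 0.279). IREB2 had 86.5 CPM in each control library and 66.4 and 75.0 CPM in knockdown libraries, a log2-fold change of −0.29 (SE 0.12, 95% interval −0.58 to 0.0017, edgeR adjusted p = 0.178). With the replicate block, ACO1 had an edgeR p of 0.038 (adjusted p = 0.0946) and IREB2 of 0.019 (adjusted p = 0.0555). Neither gene was called in that fit. The regulators thus had opposite signs, and for each the step was larger in I90-10 (0.37 and −0.38) than in I90-79 (0.14 and −0.21). RPKM of ACO1 per RPKM of IREB2 was 8.52 and 9.11 in control and 14.3 and 11.6 in knockdown libraries, a ratio chosen after the values were seen and not tested. FBXL5 (ENSG00000118564, chromosome 4, 15606162 to 15683302) encodes the iron-binding subunit of the ubiquitin ligase that removes IRP2. It differed least, with 68.0 and 65.9 CPM in control and 70.6 and 72.5 CPM in knockdown libraries, a log2-fold change of 0.095 (SE 0.11, 95% interval −0.17 to 0.36, edgeR adjusted p = 0.598).

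Levels of different genes were compared as RPKM, that is CPM per kilobase of exonic length as the files give it. In control libraries FTL was highest, with 4918 ± 370 RPKM (SD, n = 2), followed by FTH1 with 1036 ± 120 RPKM (SD, n = 2). ACO1 (70.6 RPKM) and NCOA4 (67.5) came next and overlapped each other, then TFRC (23.1) and FBXL5 (14.6). SLC11A2 (9.86 RPKM) and STEAP3 (9.79) overlapped, IREB2 had 8.01 RPKM and SLC40A1 was lowest at 2.32 ± 0.499 RPKM (SD, n = 2). In knockdown libraries TFRC, at 83.3 ± 2.80 RPKM (SD, n = 2), lay above NCOA4 (77.2) and overlapped ACO1 (84.2), so that it left its place between NCOA4 and FBXL5. FBXL5 (15.6 RPKM) and SLC11A2 (14.8) overlapped in the knockdown. The place of FTH1 under FTL in the knockdown libraries rests on the length used. All reads of FTH1 were also divided by the 763 exonic bases that no other gene shares, a length chosen after the data had been seen, which presumes that no counted read fell on the shared bases. FTH1 then had 2531 and 2981 RPKM in control and 4348 and 5058 RPKM in knockdown libraries, the latter above the 4211 and 4247 RPKM of FTL.

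Beyond these 10 genes, 102 genes of iron, heme and iron-sulfur metabolism in 8 lists were examined, of which 87 were tested. None was called in the test without a term for the isolate. In that test 24 had a higher and 11 a lower level at an unadjusted p below 0.05, or 40.2% of those tested against 28.3% of all genes. With the replicate block, 12 were called as up- and 5 as downregulated, or 19.5% against 14.5% of all genes tested. Of the 87 genes, 54 had a positive log2-fold change (62.1%, against 49.6% of all genes tested). The lists had been chosen with results of these data known, so these shares are a description.

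**Figure D4:**
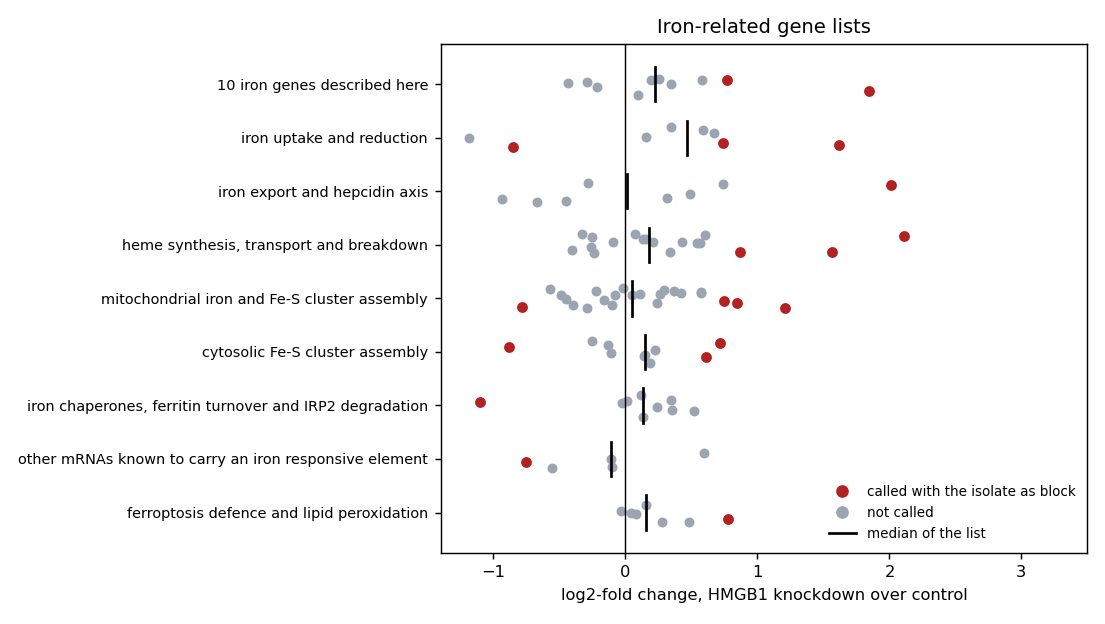
Log2-fold changes of the tested genes in each list (points, spread vertically for clarity; red, called by edgeR once the isolate was a replicate block; bars, medians). TFRC at 1.85, STEAP1 at 1.62, BMP2 at 2.01, ABCG2 at 2.11 and CPOX at 1.56 lie far to the right, and PCBP4 at −1.10 and the uncalled MELTF at −1.18 lie farthest to the left.

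Among 14 further genes of iron uptake and reduction, 8 were tested, of which 2 were called as up- and 1 as downregulated with the replicate block (37.5%, against 14.5% of all genes tested). MCOLN1, the lysosomal channel that releases iron to the cytosol, had 18.9 and 21.5 CPM in control and 34.6 and 33.0 CPM in knockdown libraries, with a log2-fold change of 0.74 (SE 0.13, edgeR adjusted p = 0.0371, and 0.0022 with the block). STEAP1, a relative of STEAP3, had 1.70 and 3.20 CPM in control and 7.31 and 7.85 CPM in knockdown libraries (log2-fold change 1.62, adjusted p = 0.0503 and 0.0016). SLC22A17, a lipocalin receptor, had a log2-fold change of 0.59 and was not called in either fit. The downregulated gene, named after its values were seen, was the ferrireductase CYBRD1, with 172 and 104 CPM in control and 82.5 and 70.7 CPM in knockdown libraries (log2-fold change −0.85, edgeR adjusted p = 0.104, and 0.0024 with the block).

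Heme is made by inserting iron into protoporphyrin. Of 18 heme genes tested, 12 had a positive log2-fold change (66.7%, against 49.6% of all genes tested). The replicate block called 3 as up- and 0 as downregulated, or 16.7%, near the 14.5% of all genes tested. CPOX, which makes protoporphyrinogen, had 13.0 and 15.2 CPM in control and 40.6 and 42.7 CPM in knockdown libraries, with a log2-fold change of 1.56 (SE 0.14, edgeR adjusted p = 0.0109, and 7.8e-05 with the block). ABCG2, an exporter of porphyrins and heme, had 3.44 and 5.35 CPM in control and 14.4 and 23.7 CPM in knockdown libraries (log2-fold change 2.11, adjusted p = 0.0296 and 7.4e-05). The remaining called gene, named after its values were seen, was HMOX1, a gene of heme breakdown. It had 56.1 and 40.4 CPM in control and 105.5 and 70.7 CPM in knockdown libraries (log2-fold change 0.87, edgeR adjusted p = 0.0981, and 5.2e-04 with the block). ALAS1, the first and rate-limiting enzyme outside the erythroid lineage, had 87.5 and 109 CPM in control and 143 and 148 CPM in knockdown libraries. Its log2-fold change of 0.57 was under the fold threshold (edgeR adjusted p = 0.0735, and 0.0044 with the block).

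In the mitochondrial iron and iron-sulfur list, 23 of 25 genes were tested and were nearly even in sign, 12 positive and 11 negative. The block called 3 as up- and 1 as downregulated, or 17.4%, near the 14.5% of all genes tested. The transporter ABCB10 had 7.73 and 8.03 CPM in control and 16.0 and 20.5 CPM in knockdown libraries (log2-fold change 1.21, edgeR adjusted p = 0.0270). NFS1, the cysteine desulfurase that supplies the sulfur, had 18.1 and 16.7 CPM in control and 28.8 and 29.6 CPM in knockdown libraries (0.74, adjusted p = 0.0350). SFXN1, a mitochondrial serine transporter, was lower, with 98.0 and 112 CPM in control and 58.0 and 64.4 CPM in knockdown libraries (−0.78, adjusted p = 0.0306). All 3 were called with the replicate block. The block also called SLC25A37 as upregulated, a gene named after its values were seen. Control libraries held 29.0 and 50.9 CPM of it, and knockdown libraries 63.6 and 80.3 CPM. Without the block, a log2-fold change of 0.85 had an edgeR adjusted p of 0.133. The block gave 0.89 (edgeR adjusted p = 0.0016). Of 10 tested genes of cytosolic iron-sulfur assembly, the block called CIAO2A (0.61) and CIAO3 (0.71) as upregulated and NUBP1 (−0.88) as downregulated. These made up 30% of the list, against 14.5% of all genes tested.

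Of 8 tested genes of iron export and the hepcidin axis, 1 was called with the block (12.5%, against 14.5% of all genes tested). This was BMP2, a ligand that induces hepcidin in the liver. It had 45.4 and 90.7 CPM in control and 156 and 392 CPM in knockdown libraries, so the isolates differed widely in level (log2-fold change 2.01, edgeR adjusted p = 0.0807, and 4.0e-05 with the block). Without knockdown replicate 2 its log2-fold change was 1.20, and without control replicate 2 it was 2.59. FURIN (0.49) and NEO1 (−0.28) were not called, and hepcidin itself, HAMP, had 0 reads in every library. Among 9 iron chaperones and factors of ferritin and IRP2 turnover, the block called 1, or 11.1%, against 14.5% of all genes tested. This was PCBP4, a member of a family of iron chaperones and RNA-binding proteins, called as downregulated (−1.10). It had 77.2 and 47.3 CPM in control and 33.7 and 24.1 CPM in knockdown libraries. PCBP3 (0.52) and SKP1 (0.35), a subunit of the ligase that holds FBXL5, were not called.

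Of 6 other mRNAs known to carry an IRE, 5 were tested. The block called 1 of these, or 20%, against 14.5% of all genes tested. EPAS1, the hypoxia-inducible factor with an IRE in its 5′ UTR, had 1266 and 844 CPM in control and 649.7 and 600.2 CPM in knockdown libraries. Its log2-fold change of −0.76 (SE 0.23, edgeR adjusted p = 0.103) was called with the block (adjusted p = 0.0037). CDC42BPA (−0.55) and CDC14A (0.60), which encode a kinase and a phosphatase, were not called. Among 7 tested genes of ferroptosis defence and lipid peroxidation, the block called 1, or 14.3%, against 14.5% of all genes tested. This was AIFM2, an oxidoreductase that guards membranes against peroxidation (0.78, edgeR adjusted p = 9.4e-04 with the block). It had 36.6 and 54.5 CPM in control and 67.7 and 88.4 CPM in knockdown libraries. LPCAT3 (0.28) and ACSL4 (0.48) were not called.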

How the data were processed

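The authors selected poly(A) RNA with the TruSeq kit, sequenced both ends, aligned to hg19 using STAR, and deposited raw counts of unique reads per gene from featureCounts. Versions, the strand setting and whether a pair was counted once are not given in the sources used here. Symbols were matched through the reference table, and NCOA4 by exon overlap. Counts were filtered with filterByExpr, scaled by TMM and tested on all 4 libraries with edgeR 4.0.16 in R 4.3.3, with Benjamini-Hochberg adjustment over 15398 genes. The steps were tested on simulated counts with the same spread for all genes and no difference between isolates. That simulation therefore cannot judge the fits with and without the replicate block on these data. The labels give each isolate a library in both groups, so replicate numbers pair the libraries, and across genes the isolate difference in control correlated with that in knockdown libraries (r = 0.464). Alternatives were DESeq2 1.42.0, RUVs with 1 factor, other scalings and filters, the replicate block and leaving out each library. An exact permutation test of 2 against 2 libraries cannot go below p = 0.333. The genes and lists were chosen with earlier results of these data known. All 10 iron genes are named, with the 3 genes of smallest p in each list and the FTH1 and FTL pseudogenes with a mean of at least 1 CPM, at most 4 each. CYBRD1, HMOX1 and SLC25A37 were added after their values were seen.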

Additional observations from a re-analysis of the deposited data

How the results depend on the processing

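With filterByExpr, TMM, all 4 libraries and no term for the isolate, edgeR called 0 iron genes and 0 genes of the other iron lists. The iron genes called as upregulated numbered 2 with DESeq2, with RUVs followed by DESeq2, without a filter on low counts and with the replicate block, and 1 at an adjusted p below 0.05 with any fold change. Leaving out each library in turn gave 0 to 1, the 1 being TFRC without either control library. Of all genes tested, 4.71% were called as upregulated with DESeq2, 5.72% with RUVs, 4.08% without a filter, 6.68% with the replicate block and 3.94% at an adjusted p below 0.05, and 5.31%, 6.07%, 4.65%, 7.84% and 4.5% as downregulated. In the other lists the upregulated genes numbered 7 with DESeq2, 11 with RUVs and 13 without a filter. They numbered 12 with the replicate block and 7 at an adjusted p below 0.05. The downregulated ones numbered 3, 5, 5, 5 and 1 in the same order. For these lists, counts with a library left out rest on 1 library in a group and are not given. The replicate block changed no other call among the 10 iron genes. HMGB1 kept a log2-fold change between −3.77 and −3.38 when a library was left out, but was not called without knockdown replicate 1 (adjusted p = 0.0487 from edgeR) or 2 (0.0324), where edgeR called 0 of all genes tested. TFRC stayed between 1.67 and 2.04 and FTH1 between 0.66 and 0.89. No iron gene changed sign in any alternative that used its own reads. The FTL pseudogenes counted alone, in place of FTL, had the opposite sign to it (0.090). They held only between 0.0631% and 0.0927% of the reads of the FTL row. No alternative scaling moved the median of all genes by over 0.1.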
